A study of Mus musculus with 27 samples.

Results

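Cytochrome P450 genes were taken as the protein-coding genes whose GENCODE vM21 symbol consists of Cyp, a family number, a subfamily letter and a member number, and 94 of the 22524 genes with deposited counts met this rule. Cyp51, whose symbol has no subfamily letter, and the thromboxane and prostacyclin synthases Tbxas1 and Ptgis were kept as related enzymes outside the 94. Transcripts were counted in 27 mouse RNA-seq libraries. Organoids were grown from jejunal tissue of 9 adult male C57BL/6 mice, 3 cohoused littermates from each of the SPF facilities SR and SE (specific pathogen-free, with a different microbiota each) and 3 from the germ-free facility GF, so that every culture represents 1 mouse. Each organoid culture (Z908 to Z910 from SR, Z911 to Z913 from SE, Z917 to Z919 from GF) and each of 3 cultures of m-ICc12, an immortalised mouse intestinal epithelial line, gave 1 library labelled untreated and 1 labelled as treated with TNF at 5 ng/mL for 8 hr. Mouse embryonic fibroblasts (MEF, R1 to R3) gave 3 libraries labelled untreated. The replicates of m-ICc12 and MEF are called cultures below, though nothing states that they were separate cultures. The m-ICc12 medium contained dexamethasone, a ligand of the glucocorticoid and pregnane X receptors, while the organoids were kept in Matrigel with Intesticult medium.

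P450 enzymes are haem proteins of the endoplasmic reticulum or the mitochondrion that insert oxygen into their substrates with electrons from the reductase Por or from ferredoxin. Families 1 to 3 oxidise drugs, plant compounds and other foreign chemicals, family 4 oxidises fatty acids and leukotrienes, and smaller families make or remove steroid hormones, bile acids, vitamin D and retinoic acid. The intestinal epithelium holds the largest store of these enzymes outside the liver. Several of their genes are controlled by receptors that bind such compounds, among them the aryl hydrocarbon receptor (Ahr), the pregnane X receptor (Nr1i2) and the constitutive androstane receptor (Nr1i3).

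The libraries held 6071103 to 43843615 counts on genes. Organoids had all 9 listed intestinal epithelial markers at 1 CPM (counts scaled to library size with TMM factors) or more in every library. The m-ICc12 libraries had 2 to 4 of these 9 at 1 CPM. The intestinal factor Cdx2 stood there at 0.237 to 0.452 CPM and the adhesion gene Cdh1 at 1.12 to 4.31 CPM, while the brush border gene Vil1 stood at 24.1 to 40.6 CPM, against 0.881 to 1.84 CPM in MEF. Of 9 listed kidney tubule genes, 5 to 6 reached 1 CPM in m-ICc12, among them Pax8 (274 to 314 CPM) and Cdh16 (634 to 784 CPM), while Aqp2 and Slc12a1 were at 0 and Umod at 0.396 to 1.14 CPM. MEF had Col1a1 at 1804 to 2410 CPM, with the fibroblast marker Thy1 at 0 in all libraries. In each of the 12 pairs, the name of the deposited data carries the code T for the library labelled untreated. The TNF targets Nfkbia, Nfkb2, Tnfaip3 and Relb were higher in the T-coded library in 9 of 9 organoid cultures, Nfkbia by a log2 fold change of 2.66 (SE 0.10, adjusted p = 6.4e-17, edgeR quasi-likelihood test). The libraries are therefore called by both names below, and contrasts are given as the T-coded library (labelled untreated) minus the other library (labelled TNF).

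Upstream sequence was read from RefSeq (GRCm38.p6) for 73 of the 94 members, as the 250 bases before the annotated start. Cyp2c65 and Cyp2c68 varied least between organoid cultures among the Cyp2c genes with a median of 10 CPM or more, and Cyp1a1, the classical target of Ahr, had the largest spread between the libraries of a culture among the 23 members at that level. In Cyp2c65 and Cyp2c68 the capitals mark CAAAGTCCA, a form of the site bound by the intestinal and hepatic factor HNF4A. In Cyp1a1 they mark GCGTG, the letters at the core of the element bound by Ahr with Arnt. Only these letters were searched for, they occur in 28.2% of all promoters, and whether Ahr binds at this place was not tested.
Cyp2c65 chr19:39060756-39061005, plus strand: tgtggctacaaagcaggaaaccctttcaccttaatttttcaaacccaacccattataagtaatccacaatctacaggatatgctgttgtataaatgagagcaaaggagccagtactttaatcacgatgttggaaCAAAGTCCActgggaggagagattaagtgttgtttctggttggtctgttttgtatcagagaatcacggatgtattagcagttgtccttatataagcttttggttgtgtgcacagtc
Cyp2c68 chr19:39741102-39741351, minus strand: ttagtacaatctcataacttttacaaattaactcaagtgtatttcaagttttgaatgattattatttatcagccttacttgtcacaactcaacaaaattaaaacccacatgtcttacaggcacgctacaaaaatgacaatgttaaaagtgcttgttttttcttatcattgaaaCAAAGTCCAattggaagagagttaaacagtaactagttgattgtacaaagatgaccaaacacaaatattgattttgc
Cyp1a1 chr9:57697363-57697612, plus strand: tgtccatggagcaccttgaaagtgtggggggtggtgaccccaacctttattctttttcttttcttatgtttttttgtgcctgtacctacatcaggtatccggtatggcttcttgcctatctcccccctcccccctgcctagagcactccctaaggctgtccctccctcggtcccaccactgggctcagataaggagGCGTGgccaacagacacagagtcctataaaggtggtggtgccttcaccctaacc

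CAAAGTCCA lay 116 to 108 bases before the start of Cyp2c65 and 77 to 69 bases before that of Cyp2c68, and GCGTG lay 54 to 50 bases before the start of Cyp1a1. The Cyp1a1 stretch lies inside the GENCODE gene span (chr9:57687928-57703824) but overlaps none of its exons. On either strand, CAAAGTCCA was found in 9 of 83 member promoters (10.8%) and in 0.384% of all 32851 promoters of this length. The other members with it were Cyp2c40, Cyp2c67, Cyp2c69, Cyp2c70, Cyp3a11, Cyp3a16 and Cyp8b1, several of which are close copies of each other. TATAAA, the TATA box, was present in 33.7% of member promoters against 12.4% of all, and an HNF1 site in 2.41% against 0.371%. GCGTG was present in 19.3% of member promoters and 28.2% of all, TTTATG, for CDX factors, in 13.3% and 10.8%, and AGATAAG, for GATA factors, in 4.82% and 2.74%. A direct repeat bound by nuclear receptors and an NF-kB site were in 0 of the member promoters, against 0.0335% and 0.14% of all. These are matches of letters within 250 bases only.

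Jejunal organoids carried a broad set of P450 transcripts. Of the 94 members, 30 had a median of 1 CPM or more over the 9 organoid cultures (a culture's value being the mean of its libraries), against 13 in m-ICc12 and 10 in MEF. In organoids, 10 members stood at 100 CPM or more, 13 between 10 and 100, 7 between 1 and 10, 50 below 1, and 14 had no count in any of the 27 libraries. The 10 members highest in CPM held 83% of the summed member CPM. All members together took 0.224% to 0.720% of the counts in organoid libraries (median 0.323%), 0.0121% to 0.0158% in m-ICc12 and 0.00967% to 0.0132% in MEF.

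**Figure D1:**
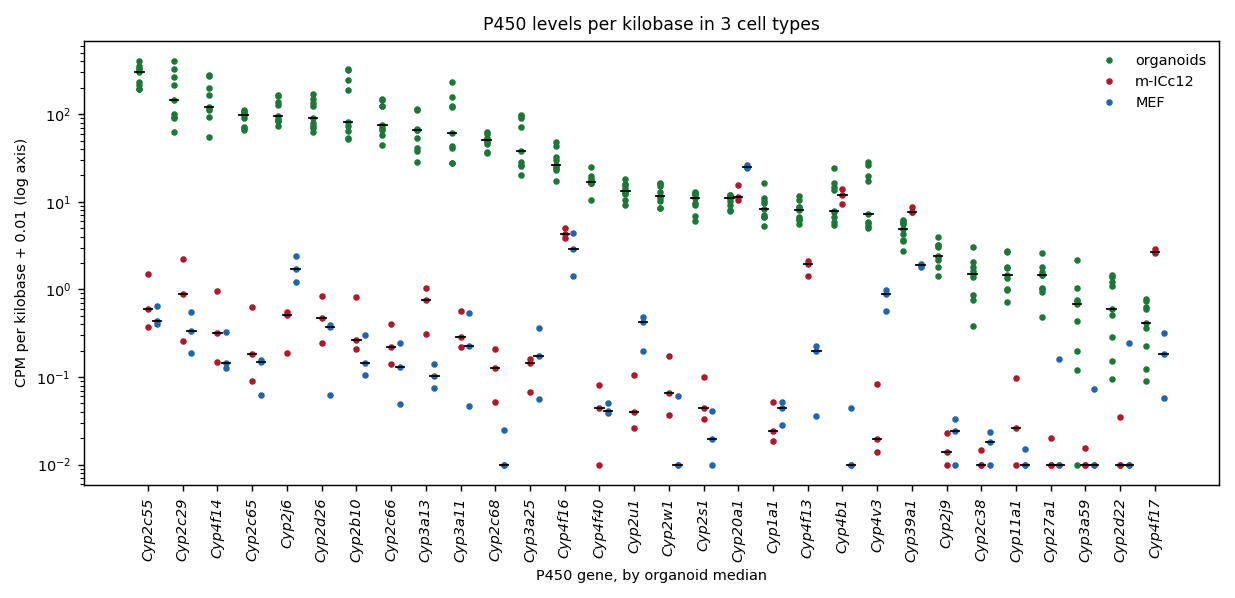
P450 levels per kilobase of exon (CPM per kilobase plus 0.01, log axis) for the 30 members with an organoid median of 1 CPM or more. Each point is 1 culture of organoids (n = 9) or 1 replicate of m-ICc12 (n = 3) or MEF (n = 3), and each bar is a median. The genes were chosen by their organoid level, which favours organoids, and members such as Cyp1b1 and Cyp26b1, higher in other cells, are not shown. Among the genes shown, another cell type is as high or higher for Cyp20a1, Cyp4b1, Cyp39a1 and Cyp4f17.

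The counts above use CPM, and the order of the genes was read per kilobase of exon. On that scale Cyp2c55, which oxidises arachidonic acid, was the highest in organoids, with a median of 305 CPM per kilobase (193 to 404 over 9 cultures). Next came Cyp2c29 at 144 and Cyp4f14, an omega-hydroxylase of leukotrienes, at 120 CPM per kilobase. Cyp2c65 (98.0), Cyp2j6 (96.5), an epoxygenase of arachidonic acid known from the small intestine, and Cyp2d26 (90.6) followed, and then Cyp2b10 (81.1), Cyp2c66 (75.7), Cyp3a13 (65.8) and Cyp3a11 (61.1). Cyp3a11 and Cyp3a13 are relatives of human CYP3A4, the main drug-metabolising enzyme of liver and gut. The lowest culture of Cyp2c55 lay above the median of each other member, but its range overlapped that of Cyp2c29 (62.3 to 406), and the other neighbours in this order overlapped as well.

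The genes lie in clusters, and few members of a cluster were expressed at a substantial level. In the Cyp2c cluster on chromosome 19 (39007019 to 40187333, GRCm38), 5 of 14 members had an organoid median of 10 CPM or more, namely Cyp2c55, Cyp2c65, Cyp2c66, Cyp2c29 and Cyp2c68, and the first 4 of these are the first 4 genes in chromosomal order. In the Cyp3a cluster on chromosome 5 (145345279 to 146113287) these were Cyp3a11 and Cyp3a25, 2 of 6 members, and in the Cyp4f cluster on chromosome 17 (32452723 to 32947402) 4 of 8 members, Cyp4f13, Cyp4f14, Cyp4f16 and Cyp4f40. The Cyp2a, Cyp2b, Cyp2f, Cyp2g, Cyp2s and Cyp2t cluster on chromosome 7 (25802475 to 27158668) had 2 of 13, Cyp2b10 and Cyp2s1, with 4 members at 0 counts. The Cyp2j and Cyp4a clusters on chromosome 4 and the Cyp2d cluster on chromosome 15 had 1 each, Cyp2j6, Cyp4b1 and Cyp2d26. How reads that align to several of these near-identical genes were assigned is not stated, so that low levels of close copies are uncertain.

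By role, 19 of 58 members of families 1 to 3 and 7 of 17 of family 4 reached 1 CPM in organoids, where 30 of all 94 members did. Among the 6 steroid hormone enzymes only Cyp11a1, the side-chain cleavage enzyme that begins steroid synthesis, did so, with 3.38 to 13.1 CPM (median 7.02), while Cyp11b1, Cyp11b2, Cyp17a1 and Cyp19a1 had 0 counts in all 27 libraries. Among the 6 enzymes of sterols and bile acids, Cyp39a1, an oxysterol hydroxylase, stood at 8.29 to 19.0 CPM and Cyp27a1, the sterol 27-hydroxylase, at 1.04 to 5.64 CPM. The 5.64 CPM was that of Z908, with 11.1 CPM in its library labelled untreated and 0.142 CPM in its second library. The next culture, Z910, had 3.89 CPM. Cyp7a1, the rate-limiting enzyme of bile acid synthesis, was at 0 or near it except in 1 organoid library described below. None of the 6 enzymes of vitamins D and A reached a median of 1 CPM in organoids, the vitamin D hydroxylases Cyp24a1 and Cyp27b1 included. Cyp20a1, a member without a known substrate, stood at 18.2 to 27.3 CPM.

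**Figure D2:**
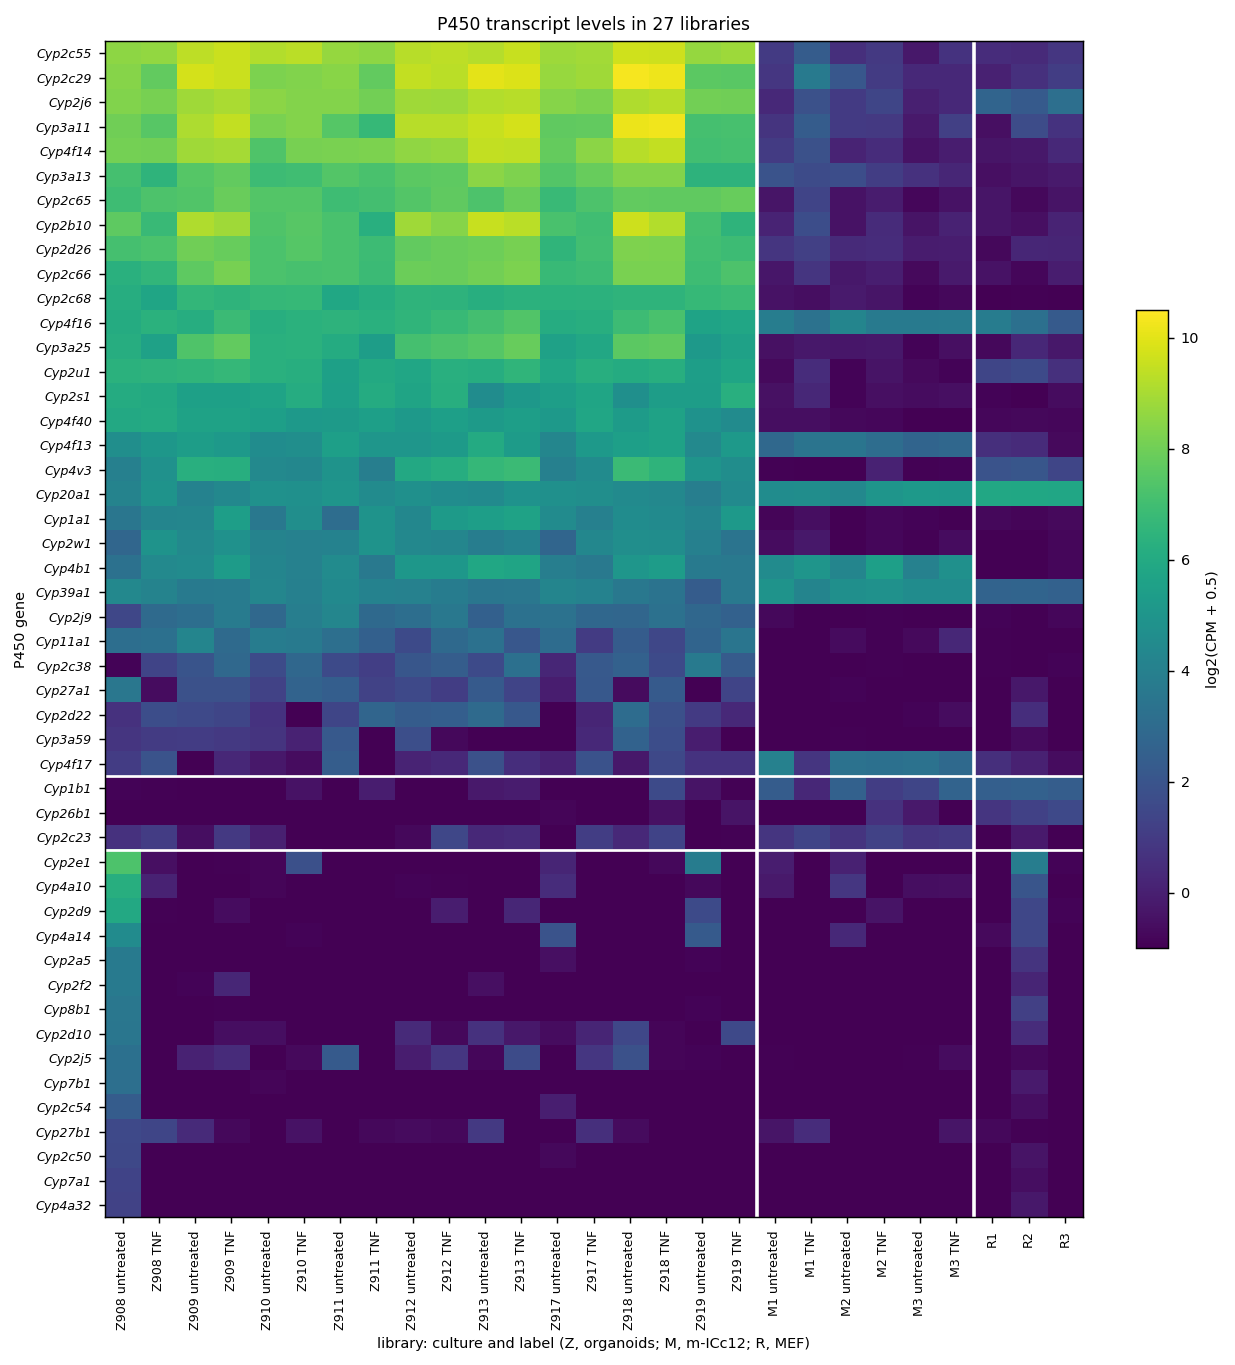
Transcript levels, as log2(CPM + 0.5), of 48 members in 27 libraries. The top block holds the 30 members with an organoid median of 1 CPM or more, the middle block 3 further members with a median of 1 CPM or more in m-ICc12 or MEF, and the bottom block 15 members that are high in the Z908 library labelled untreated. The bottom block is dark in nearly all other libraries, with weaker values in the MEF library R2 and the Z919 library labelled untreated.

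One organoid library stands apart for liver-type P450 genes and is described separately here. In the Z908 library labelled untreated, 15 members had at least 10 counts and at least 10 times the median of the other 17 organoid libraries (or of the detection floor of 3 counts). Cyp2e1, the ethanol-oxidising enzyme of the liver, stood there at 156 CPM against 0 to 13.8 CPM (median 0) in the other 17. Cyp4a10, a fatty acid omega-hydroxylase, stood at 74.0 CPM against at most 0.881. Cyp2d9 (61.4 against at most 2.53), Cyp4a14 (22.8 against at most 4.30) and Cyp2a5 (12.7 against at most 0.189) showed the same. The bile acid enzymes Cyp8b1, Cyp7b1 and Cyp7a1 were at 11.3, 8.68 and 2.01 CPM in this library and at no more than 0.0579 CPM in any other organoid library. Cyp27b1, also among the 15, was not particular to this library, with 2.42 CPM here and 2.17 CPM in the second library of Z908.

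The hepatocyte markers moved with these genes. In the Z908 library labelled untreated, 16 of 16 listed hepatocyte markers reached 1 CPM, albumin (Alb) stood at 597 CPM, and the list without Cps1, which the intestine also expresses, summed to 1898 CPM. In the other 17 organoid libraries Alb lay between 0 and 32.9 CPM (median 2.10) and this sum between 19.0 and 161 CPM (median 36.8). The second library of the same culture had Alb at 4.30 CPM and 4 of 16 markers at 1 CPM. The Z919 library labelled untreated had 13 of 16 markers, Alb at 32.9 and Cyp2e1 at 13.8 CPM, and the Z917 library labelled untreated had 8 of 16, with Alb at 23.1 CPM. The MEF library R2 had 16 of 16 markers, Alb at 54.5 and Cyp2e1 at 14.2 CPM. Of the 15 members, 14 were above 3 counts there, the exception being Cyp27b1 with 1 count. In m-ICc12, Alb stood at 3.57 CPM in M1 and 12.0 CPM in M2 labelled untreated, with 2 and 3 of 16 markers at 1 CPM. Their second libraries had Alb at 0.348 and 0.027 CPM. Where the liver transcripts come from was not tested. The members called between cell types, between origins and by the organoid TNF contrast are also given without the Z908 library, in fits without a block. Levels, variation, partner genes and blocked fits below include it.

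**Figure D3:**
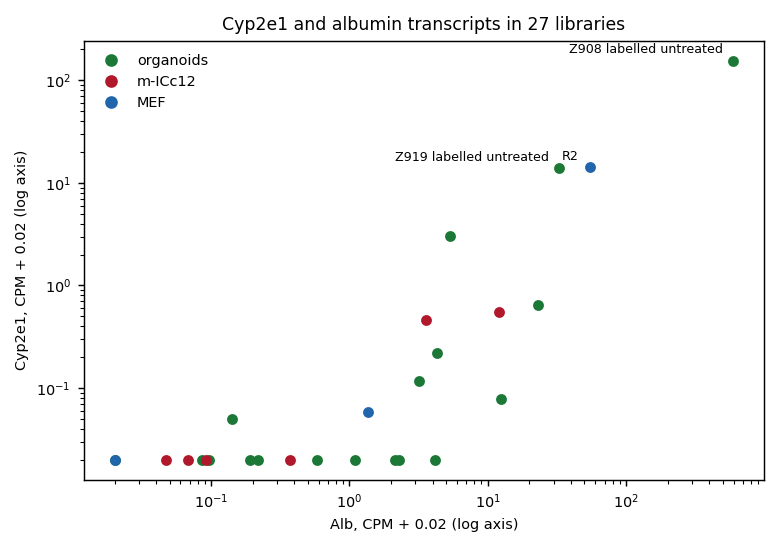
Cyp2e1 against albumin (Alb) in the 27 libraries (CPM + 0.02, log axes), 1 point per library. The Z908 library labelled untreated lies at 156 CPM of Cyp2e1 and 597 CPM of Alb, followed by the Z919 library labelled untreated and the MEF library R2.

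The comparison of cell types asked which P450 transcripts set organoids apart from the cell lines. Libraries of a culture were summed, so that each organoid and m-ICc12 sum holds libraries of both labels. In these sums the deeper library weighs more. MEF had only libraries labelled untreated, so that treatment is not balanced in the comparisons with MEF. Against m-ICc12, 30 of 41 members tested were higher in organoids and 5 lower at an adjusted p under 0.05 (edgeR quasi-likelihood test, Benjamini-Hochberg over all 13479 genes). Of all genes, 36.6% were called higher and 34% lower. The median log2 fold change over the members tested was 7.80. Some of these, such as Cyp1a1 and Cyp2c38, passed the count filter only through organoids, which raises this median and the count of higher members. The median over all genes is not given beside it. Leaving out the Z908 library gave the same counts of 30 and 5.

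Cyp2b10 (ENSMUSG00000030483, chr7:25897620-25926624, plus strand), induced by phenobarbital through Nr1i3, stood at 111 to 690 CPM in organoids (median 171) and at 0.420, 0.538 and 1.70 CPM in the m-ICc12 cultures. The ranges are far apart, with a log2 fold change of 9.18 (SE 0.98, adjusted p = 5.0e-07). Cyp2c65 had 127 to 215 CPM against 0.156 to 1.19, with a log2 fold change of 9.13 (SE 0.36, adjusted p = 4.1e-12). Cyp2c38 had 1.06 to 8.69 CPM in organoids and at most 3 counts in each m-ICc12 library, so that its mean was at least 8.10-fold higher. Cyp1a1 was likewise at least 48.3-fold higher. The members of the Cyp2c, Cyp3a and Cyp4f families at about 1 CPM in the cell lines were accompanied there by other intestinal transcripts at about that level, such as Sis at 3.35 to 10.4 CPM in m-ICc12 and 1.64 to 4.95 CPM in MEF against 846 to 3315 CPM in organoids, and the source of these counts was not tested.

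The 5 members higher in m-ICc12 were Cyp46a1, Cyp4a31, Cyp1b1, Cyp4f17 and Cyp39a1. Cyp1b1, an Ahr target that oxidises oestrogens and is typical of mesenchymal cells, had 2.63, 3.52 and 4.02 CPM in m-ICc12 against 0 to 1.24 CPM in organoids (log2 fold change -3.98, SE 1.19, adjusted p = 0.0076, and 0.074 with the libraries labelled TNF only). Cyp46a1, the cholesterol 24-hydroxylase, had 0.570 to 1.93 CPM against at most 0.127 (-4.25, SE 1.20, adjusted p = 0.0052, and 0.060 by DESeq2). Cyp4f17 had 8.33 to 9.29 CPM against 0.253 to 2.46 (-2.85, SE 0.57, adjusted p = 0.00038). The call for Cyp4a31 (-3.99, SE 1.42, adjusted p = 0.020) rested on culture M1, and without it the adjusted p was 0.49. Its counts were highest in M1 and M2 labelled untreated (63 and 10), the m-ICc12 libraries with the most Alb, whose part was not tested. Cyp4b1, a lung- and kidney-type fatty acid and xenobiotic oxidase, was at 21.4 to 31.5 CPM in m-ICc12 and 12.3 to 55.1 CPM in organoids, with a log2 fold change of 0.10 (SE 0.39, adjusted p = 0.84).

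Against MEF, 31 of 38 members tested were higher in organoids and 4 lower, where 39.2% of all genes were called higher and 34.9% lower. The median log2 fold change of the members tested was 7.46, and the counts were the same without the Z908 library. Here too some members, such as Cyp2c68 and Cyp4b1, passed the filter only through organoids, which raises the median and the count of higher members. Cyp2c68 had 61.8 to 109 CPM in organoids and at most 3 counts in each MEF library, which makes it at least 740-fold higher. Cyp4b1 was at least 223-fold higher. Cyp2b10 was 900-fold higher by the means of 330 and 0.367 CPM (log2 fold change 9.95, SE 1.05, adjusted p = 4.2e-07). The 4 lower members were Cyp26b1, Cyp1b1, Cyp46a1 and Cyp20a1. Cyp26b1, which degrades retinoic acid, had 1.23, 1.81 and 2.42 CPM in MEF and 0 to 0.127 CPM in organoids (-5.56, SE 1.18, adjusted p = 0.00054). Cyp1b1 had 4.72 to 5.36 CPM in MEF (-4.41, SE 1.17, adjusted p = 0.0032). For Cyp46a1 (-4.04, SE 1.35, adjusted p = 0.013) the MEF cultures had 0, 0.453 and 1.14 CPM, and the adjusted p was 0.17 without R1 and 0.13 by DESeq2. Cyp20a1 had 56.3 to 59.6 CPM in MEF (-1.23, SE 0.14, adjusted p = 6.3e-07).

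Between m-ICc12 and MEF, 7 of 26 members tested were higher in m-ICc12 and 5 lower, where 31.1% of all genes were called higher and 31% lower. Cyp4b1 had 26.9, 31.5 and 21.4 CPM in m-ICc12 and at most 2 counts in a MEF library, so that it was at least 231-fold higher. It was also the highest member per kilobase in m-ICc12, with 11.9 CPM per kilobase. Cyp20a1 (11.3), Cyp39a1 (7.73), Cyp4f16 (4.26) and Cyp4f17 (2.70) followed. Cyp4f17 was higher in m-ICc12 by a log2 fold change of 4.2 (SE 0.57, adjusted p = 4.7e-05), and Cyp4a31 by 5.65 (SE 1.83, adjusted p = 0.018), which had an adjusted p of 0.25 without M1, 0.092 without R1 and 0.066 without R3. In MEF, Cyp20a1 was the highest at 25.2 CPM per kilobase. Cyp4v3, a fatty acid omega-hydroxylase, was lower in m-ICc12 (0.0146 to 0.283 CPM) than in MEF (2.15 to 3.73 CPM), by a log2 fold change of -4.77 (SE 1.00, adjusted p = 0.0013). Cyp2u1 (-3.60, SE 0.89, adjusted p = 0.0039, and 0.084 with the libraries labelled TNF only) and Cyp26b1 (-2.86, SE 1.12, adjusted p = 0.041) were lower as well. The call for Cyp26b1 was lost under several alternatives, among them leaving out M1, M3 or any MEF culture, with adjusted p between 0.057 and 0.20.

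The partner genes of the pathway were set beside the enzymes, from a list of 22 electron donors, haem genes, receptors and related enzymes. Of these, 20 were tested between organoids and m-ICc12, with 9 higher in organoids and 6 lower. The receptors Nr1i2 (48.7 to 75.6 CPM) and Nr1i3 (11.8 to 40.0 CPM) were expressed in organoids and stood at or below 0.422 and 0.116 CPM in m-ICc12, and at or below 0.153 CPM in MEF. Hnf4a stood at 1004 to 1160 CPM in organoids, 109 to 180 CPM in m-ICc12 and 1.42 to 2.11 CPM in MEF. Ahr was present in all 3, at 16.5 to 31.5, 35.8 to 46.4 and 15.8 to 20.8 CPM. The reductase Por was higher in m-ICc12 (311 to 371 CPM) than in organoids (115 to 177 CPM). Cyp51, the sterol 14-demethylase, stood at 361 to 456, 327 to 423 and 218 to 232 CPM.

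The members differed more between organoid cultures than most genes did. Over the 9 cultures, the coefficient of variation of the 23 members with a median of 10 CPM or more had a median of 33.0%, against 13.5% for all 9212 genes at that level, and 23 of 23 members lay above that median. For 19 of the 23, the SD of log2 CPM between cultures exceeded the SD between the libraries of a culture. The former is taken over culture means and the latter over single libraries that differ in label. There is no share of all genes to set beside this count, so that it is not read as particular to the members. The largest variation among members with a median of 1 CPM or more was that of Cyp3a59, Cyp3a11, Cyp2b10, Cyp2d22 and Cyp4v3. Cyp3a59 and Cyp2d22 are low, with 0 to 4.27 and 0.329 to 5.74 CPM. In these bulk libraries, fewer cells of a type and less RNA per cell cannot be told apart.

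Cyp3a11 (ENSMUSG00000056035, chr5:145854426-145879964, minus strand) ranged from 140 CPM in Z911 to 1187 CPM in Z918, an 8.46-fold range and a coefficient of variation of 76.4%. The SD of log2 CPM was 1.14 between cultures and 0.25 between the libraries of a culture. Z909, Z912, Z913 and Z918 had 627, 618, 800 and 1187 CPM, and the other cultures 140 to 311 CPM. Cyp2b10 ranged 6.22-fold (111 to 690 CPM) and Cyp4v3 5.59-fold (19.2 to 108 CPM), in each case with the same 4 cultures on top. Cyp2c29 ranged from 191 to 1242 CPM, again with these 4 on top. These cultures come from all 3 facilities, 1 from SR, 2 from SE and 1 from GF.

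The summed level of 7 enterocyte markers was highest in the same 4 cultures, with 4231, 3591, 4813 and 5030 CPM in Z909, Z912, Z913 and Z918 and 1314 to 2160 CPM in the other 5. Among the 23 members, 12 had these 4 cultures as their 4 highest, and 10 had them so in the libraries of each label alone. Of all genes at 10 CPM or more, 4.06% had these 4 as their highest. Sis, the brush border sucrase, stood at 2730, 2175, 2892 and 3315 CPM in them and at 846 to 1577 CPM elsewhere. The stem cell marker Lgr5 ran the other way, with 83.2 to 149 CPM in the libraries of these 4 cultures and 154 to 263 CPM in those of the other 5, while the Paneth cell gene Lyz1 (122 to 169 against 73.2 to 178 CPM) and the goblet cell gene Muc2 (54.5 to 109 against 37.8 to 171 CPM) overlapped. Nr1i3 had the same 4 cultures on top, with 29.9, 26.4, 40.0 and 32.4 CPM against 11.8 to 22.1, while Hnf4a varied little (1004 to 1160 CPM). The part of the enterocyte or stem cell share in the P450 levels was not tested.

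The remaining members had other cultures among their 4 highest, and the 3 steadiest members were among these. Cyp2c68 ranged from 61.8 to 109 CPM (coefficient of variation 18.4%) and Cyp2c65 from 127 to 215 CPM (19.4%), both highest in Z919, the culture with the lowest enterocyte sum. They lie in the same cluster as Cyp2c29 and Cyp2c66 and carry the CAAAGTCCA motif printed above, as does the variable Cyp3a11. Cyp2s1, an extrahepatic Ahr target, was lowest in Z913 (29.4 CPM) and highest in Z908 (64.1 CPM). Cyp20a1 was the steadiest of the 23, with a coefficient of variation of 14.9%, and its SD between cultures did not exceed that between libraries.

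**Figure D4:**
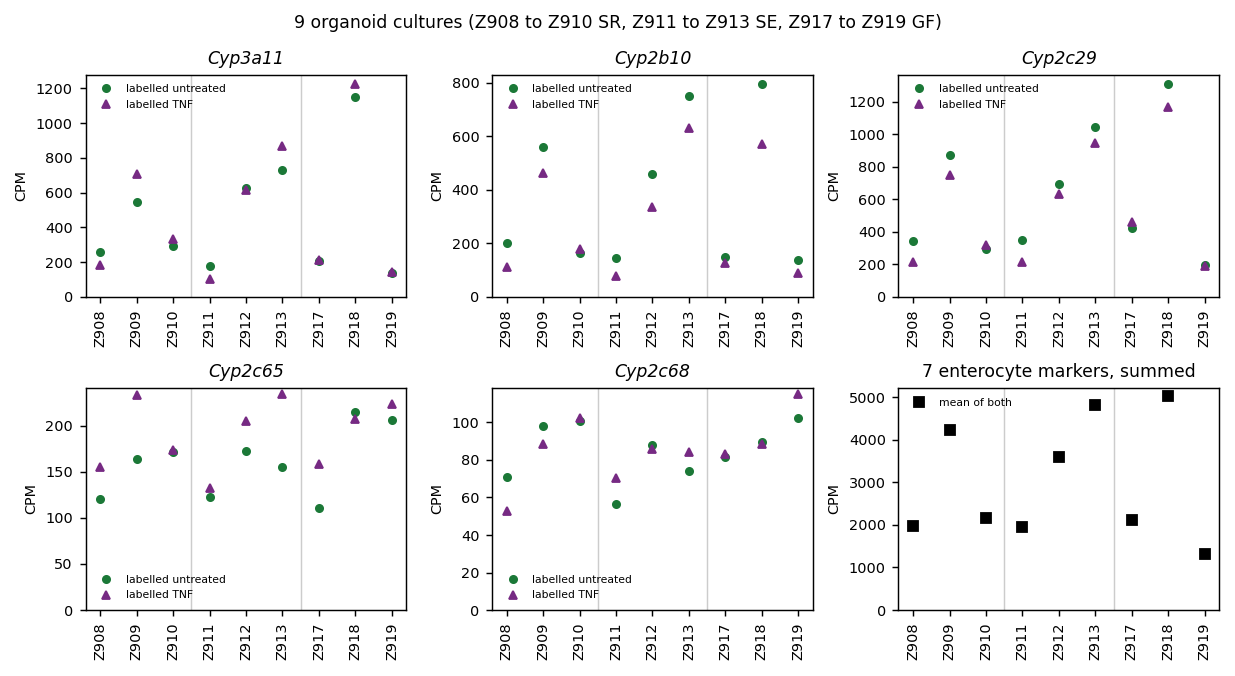
Levels (CPM) in the 9 organoid cultures of 5 members, with the library labelled untreated as a circle and that labelled TNF as a triangle, and the sum of 7 enterocyte markers as the mean of both libraries. Cyp3a11, Cyp2b10, Cyp2c29 and the markers are highest in Z909, Z912, Z913 and Z918, and Cyp2c65 and Cyp2c68 are not.

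The TNF comparison in organoids asked whether the members change after 8 hr of the cytokine. None of 33 members tested passed an adjusted p under 0.05 in the fit without a culture term, where 1.39% of all genes were called. At an unadjusted p under 0.05 there were 2 members, and 3 by DESeq2, which also called 0 after adjustment. With the mouse as a block, which removes the differences between cultures described above, 4 of 33 members were called, 1 higher and 3 lower in the T-coded library, where 3.28% of all genes were called. These 4 were Cyp2b10, Cyp1a1, Cyp2s1 and Cyp2c65. Cyp2s1 was named after its values were seen.

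Cyp2b10 stood at 137 to 795 CPM (median 200) in the 9 T-coded libraries and at 75.9 to 630 CPM (median 180) in the others. The groups overlap widely, but within cultures the T-coded library was higher in 8 of 9, Z910 being the exception with 163 against 180 CPM. The log2 fold change was 0.39 (SE 0.42, adjusted p = 0.91) without the block and 0.44 (SE 0.07, adjusted p = 6.1e-05) with it. Cyp2c29, also an Nr1i3 target, was higher in the T-coded library in 7 of 9 cultures, with 0.21 (SE 0.06, adjusted p = 0.056) in the blocked fit.

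Cyp1a1 stood at 8.05 to 42.8 CPM (median 18.8) in the T-coded libraries and at 15.6 to 48.5 CPM (median 29.6) in the others. It was lower in the T-coded library in 7 of 9 cultures, most in Z911 with 8.05 against 29.6 CPM, and higher in Z917 and Z918. The log2 fold change was -0.65 (SE 0.26, unadjusted p = 0.018, adjusted p = 0.40) without and -0.71 (SE 0.18, adjusted p = 0.017) with the block. It was the 1 member of 33 past the study's thresholds (unadjusted p up to 0.05, with a log2 change of 0.5 or more either way), which 2.91% of all genes passed. In the fit without the block and without the Z908 library labelled untreated, 0 of 33 passed the adjusted p. Cyp1a1 (-0.57, SE 0.26) and Cyp2s1 (-0.51, SE 0.17) met the study's thresholds there. The share of all genes is not given for this fit, and the blocked fit was not run without this library.

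Cyp2s1 stood at 24.0 to 66.3 CPM (median 43.9) against 34.9 to 76.3 CPM (median 61.9) and was lower in the T-coded library in 7 of 9 cultures, with -0.41 (SE 0.17, adjusted p = 0.42) without and -0.43 (SE 0.11, adjusted p = 0.014) with the block. Cyp2c65 stood at 111 to 215 CPM (median 164) against 133 to 235 CPM (median 205) and was lower in 8 of 9 cultures, with -0.26 (SE 0.13, adjusted p = 0.57) and -0.27 (SE 0.07, adjusted p = 0.018). For all 4 genes the values of the T-coded and the other libraries overlap, and the pairs move together in most cultures. The most abundant member, Cyp2c55, had a log2 fold change of -0.10 (SE 0.16, adjusted p = 0.94), and Cyp3a11 one of -0.08 that turned to 0.032 with the block (adjusted p = 0.92).

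**Figure D5:**
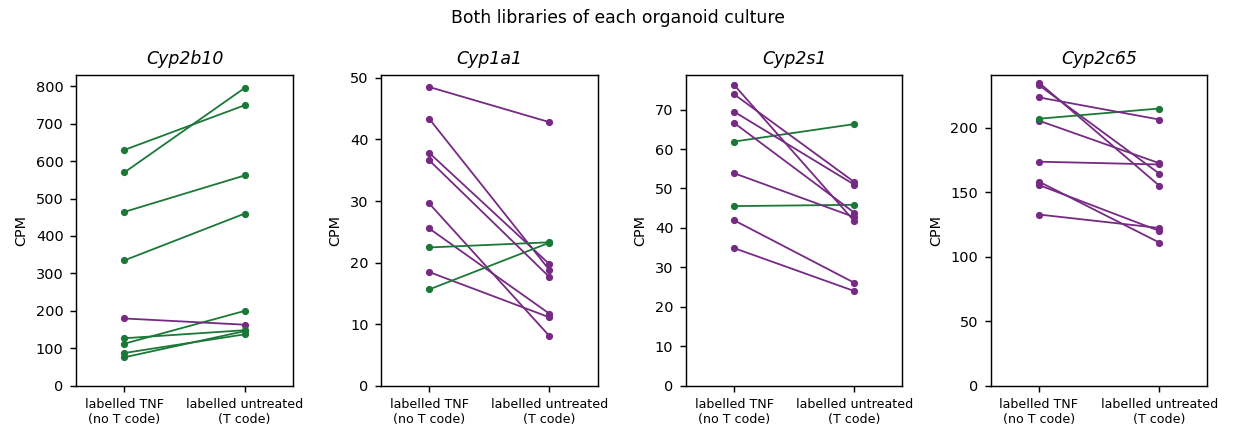
Levels (CPM) of 4 members in both libraries of each of the 9 organoid cultures, joined by a line that is green where the T-coded library (labelled untreated) is higher and purple where it is lower. Cyp2b10 is higher in 8 of 9 cultures, and Cyp1a1, Cyp2s1 and Cyp2c65 are lower in 7, 7 and 8.

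Of the 22 partner genes, 20 were tested and 1 was called. Vdr, the vitamin D receptor, stood at 329 to 463 CPM in the T-coded and 236 to 357 CPM in the other libraries and was higher in 9 of 9 cultures (log2 fold change 0.38, SE 0.08, adjusted p = 0.0071). Nr1i3 was lower in the T-coded library in 9 of 9 cultures, with -0.69 (SE 0.25, adjusted p = 0.32) without and -0.75 (SE 0.15, adjusted p = 0.0012) with the block. Tiparp, an Ahr target, was also lower in 9 of 9, with -0.50 (SE 0.17, adjusted p = 0.26) and, blocked, -0.50 (SE 0.12, adjusted p = 0.011). Hmox1, which degrades haem, was higher in 8 of 9 cultures (1.17, SE 0.42, adjusted p = 0.28). Ahr itself stood at 14.4 to 32.3 CPM against 18.6 to 30.7 CPM.

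In m-ICc12, 0 of 22 members tested passed an adjusted p under 0.05 (edgeR), where 0.11% of all genes did, and 2 had an unadjusted p under 0.05 (1 by DESeq2). Cyp4b1 had 22.8, 18.3 and 16.1 CPM in the T-coded libraries and 31.0, 44.8 and 26.7 CPM in the others. The groups do not overlap, with a log2 fold change of -0.86 (SE 0.26, adjusted p = 0.61). Cyp2e1 (6.32, SE 2.89, adjusted p = 1.00) was at no more than 0.525 CPM. It had counts only in M1 and M2 labelled untreated (15 and 24), the m-ICc12 libraries with the most Alb, whose part was not tested. Cyp4b1 and Cyp2e1 met the study's thresholds, as did 3.75% of all genes. The test of the difference between organoids and m-ICc12 called 0 of 38 members (edgeR and DESeq2), where 0.159% of all genes were called. The unadjusted p was under 0.05 for 0 members, and for 7 by DESeq2, with no share of all genes to set beside them. With the culture block it called 2, Cyp2b10 (2.20, SE 0.37, adjusted p = 0.0058) and Cyp2c55 (1.09, SE 0.22, adjusted p = 0.022), where 0.781% of all genes were called. Their m-ICc12 levels were 0.241 to 2.79 and 0.336 to 4.53 CPM, the highest in the shallowest library, M1 labelled TNF.

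Origin of the mice was compared on culture sums. Between GF and SPF organoids, 0 of 45 members passed an adjusted p under 0.05 (edgeR and DESeq2), where 0.0533% of all genes did, and 2 had an unadjusted p under 0.05 (3 by DESeq2). The study's thresholds were met by Cyp4f15, at 0.0705, 0.465 and 1.81 CPM in the GF cultures and 0 to 0.310 CPM in the SPF cultures (log2 fold change 3.93, SE 1.44, adjusted p = 1.00), and by Cyp2f2 (-6.82, SE 2.66, adjusted p = 1.00), which was highest in Z908 at 6.13 CPM, where 2.06% of all genes met them. Cyp4f15 passed the count filter only through the GF cultures and Cyp2f2 only through the SR cultures, which favours the direction seen for each. Cyp3a11 stood at 141, 209 and 1187 CPM in GF and 140 to 800 CPM in SPF, and Cyp2c55 overlapped in the same way. Without the Z908 library 44 members were tested, and 0 passed the adjusted p, which 0.0535% of all genes passed. The study's thresholds were met by 5 members, Cyp2e1, Cyp4a14, Cyp4f15, Cyp2c37 and Cyp2d10, where 2.23% of all genes met them. All 5 were higher in GF. Of these, Cyp2e1, Cyp4a14, Cyp4f15 and Cyp2c37 passed the count filter only through the GF cultures. The filter thus favoured this direction, which is not read as a difference by origin. Among the GF libraries, Cyp2e1 was highest in the Z919 library labelled untreated (13.8 CPM), and Cyp4a14 was above 0 in the libraries labelled untreated of Z919 (4.30 CPM) and Z917 (3.4 CPM). These are the 2 GF libraries with raised hepatocyte markers given above, whose part in the result was not tested.

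Between SR and SE organoids, 0 of 45 members passed an adjusted p under 0.05 (edgeR), where 0.0152% of all genes did, and 5 had an unadjusted p under 0.05 (2 by DESeq2). Cyp11a1 stood at 8.67, 12.7 and 13.1 CPM in SR and 7.02, 4.78 and 6.48 CPM in SE. The ranges do not overlap, with a log2 fold change of 0.85 (SE 0.38, unadjusted p = 0.045, adjusted p = 1.00) and 0.86 (SE 0.38) without the Z908 library. The other 4 members past the study's thresholds, which 2.44% of all genes met, were Cyp2e1, Cyp4a14, Cyp2f2 and Cyp2d9, all high in the Z908 library labelled untreated. DESeq2 called 1 member, Cyp4a14, after adjustment, with 11.4 CPM in Z908, 0 and 0.02 CPM in the other SR cultures and 0 in each SE culture. Without that library 2 members, Cyp11a1 and Cyp2e1, met the study's thresholds (2.47% of all genes did) and 0 the adjusted p. The 22 partner genes gave 0 calls in either comparison of origin, with 20 tested.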

How the data were processed

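Per the study's methods, the authors clipped adapters with Trimmomatic, aligned single-end reads to GRCm38 by STAR, and quantified them using GenomicRanges. The submitters' processing notes name STAR 2.5.4b and featureCounts. The deposited values are whole-number counts without normalization for 22524 genes. The labels call the library kit stranded and the study's methods do not mention strand. How strand and multiply aligned reads were counted is not given in the sources used here. Total counts, 6071103 to 43843615 per library, limit what can be seen below a floor of 3 counts.

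Symbols were matched to GENCODE vM21 (22214 of 22524 genes). Levels are CPM scaled by TMM over the 27 libraries. Genes with 10 counts in 50% of the samples of 1 group were tested with edgeR 4.0.16 (R 4.3.3), with Benjamini-Hochberg adjustment over all genes tested. DESeq2 1.42.0, another normalization, all genes with a count, 1 label only, the block and leaving out each culture were alternatives. Counts of members at an unadjusted p under 0.05 are printed without the share of all genes and are not read as results. The libraries of an organoid culture come from the same mouse, and their deviations correlated at r = 0.0821 to 0.311. The scripts were tested on simulated data. The members and gene lists were chosen with earlier results of these data known. Named were the 10 members highest per kilobase in organoids, the 5 highest in each cell line, members passing a TNF or origin test or the study's thresholds for TNF in organoids, the 5 most variable, up to 5 high in 1 culture, and the 3 largest changes each way between cell types. For replicates of m-ICc12 and MEF, nothing states separate cultures, so p-values there may measure technical spread. Python 3.11.15 drew the figures.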

Additional observations from a re-analysis of the deposited data

Results flagged for a closer look

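Of the 31 members named by the rule, 7 had 1 organoid culture whose gap to the nearest other culture, divided by the range over the 9 cultures, exceeded Dixon's critical value for 9 samples, which chance passes in about 1 in 20 groups. The 5 in Z908 had been named for being high in 1 culture, so that their flags follow from the choice and the chance rate does not apply to them. These were Cyp2e1 at 77.9 CPM, Cyp4a10 at 37.3, Cyp2d9 at 30.7, Cyp4a14 at 11.4 and Cyp2a5 at 6.37 CPM, each the mean of a high library labelled untreated and a low library labelled TNF. In Z918 they were Cyp1b1 at 1.24 CPM, against at most 0.385 CPM in the other cultures, and Cyp3a59 at 4.27 CPM, against at most 2.08 CPM. The flag of Cyp1b1 rests on 1 library, with 77 counts in the library labelled TNF and 0 in that labelled untreated. Cyp3a59 had been named for its variation.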

How the results depend on the processing

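Of the counts of members called, 113 values under alternatives stayed within 1.5 times the reported one and 5 did not. For the T-coded libraries of organoids, the 0 calls became 4 with the replicate block and 3 with all genes that have a count. The difference between organoids and m-ICc12 went from 0 to 2 calls with the replicate block, m-ICc12 against MEF from 12 to 7 with the libraries labelled TNF only, and SR against SE from 0 to 1 with DESeq2. The block left the 0 calls of the m-ICc12 contrast as they were, where the correlations of a culture's libraries were -0.00664 to 0.0925. Leaving out each culture gave 35 to 36 calls for organoids against m-ICc12, 32 to 37 against MEF, 8 to 14 for m-ICc12 against MEF, the highest without R3, and 0 for the others. Cyp3a11 turned to 0.032 with the block, and Cyp2d9 in SR against SE (log2 fold change 5.49) turned to -2.57 with the libraries labelled TNF only and to -2.28 without the Z908 library labelled untreated, an alternative chosen after seeing the data. Leaving out a culture put it between -2.15, without Z908, and 6.17. The cause was not tested. CPM by total counts left 30, 13 and 10 members at 1 CPM. Low depth limits members below 1 CPM.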
